A study of Homo sapiens with 6 samples.

Results

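The genes described here are 10 plasma protein genes of the hepatocyte, chosen by name as major carriers and protease inhibitors that the liver secretes and matched by symbol to the count table. They are ALB, TTR, RBP4, AHSG, SERPINA1, SERPINA3, AMBP, HPX, GC and A1BG. All 10 were among the 20332 genes of the table, and 9 of them had enough counts to be among the 12941 genes tested. A1BG did not pass the filter on low counts.

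The RNA came from Huh-7, an established human hepatocellular carcinoma cell line. Polyadenylated RNA was sequenced from 3 samples of cells that stably overexpressed RAC3, a small GTPase, and from 3 samples of the corresponding negative control, labelled WT. The comparison asks which genes differ in RNA level when RAC3 is overexpressed. The titles name RAC3 for all 3 overexpressing samples, whereas the genotype labels of replicates 2 and 3 read RAC4 and RAC5 overexpression. RAC3 itself had 33.3 ± 2.16 normalized CPM in the negative control and 232.6 ± 7.11 in the overexpressing samples (SD, n = 3 per group). Whether the line was a clone or a pool is not stated, and the samples are described only as independent RNA samples, so the p-values measure the spread between these samples. Total counts lay between 13855762 and 18199888 per sample. Values are normalized CPM (counts scaled per library by the TMM method) unless FPKM is named, the authors' values scaled for library size and gene length. A count of 0 allows up to 3 counts, or 0.167 to 0.215 CPM in these samples, and this limit covers counting error only.

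Hepatocytes make most of the protein of blood plasma. The precursors enter the endoplasmic reticulum by a signal peptide, are folded and often glycosylated there, and leave through the Golgi without storage. Their genes are read at high rates in the liver under a shared set of factors, among them HNF1, HNF4 and C/EBP proteins, and in inflammation some rise (positive acute phase proteins such as SERPINA1, SERPINA3 and HPX) while others fall (ALB, TTR, RBP4 and AHSG). In liver cancer cells the set is often kept only in part, and AFP, the fetal relative of albumin, can be expressed.

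The genes lie at separate loci on 8 chromosomes, with 1 pair each on chromosomes 4 and 14. In GENCODE release 29 (GRCh38), which was matched by Ensembl identifier, ALB (ENSG00000163631) lies on chromosome 4 from 73397114 to 73421412 on the plus strand, and GC (ENSG00000145321) on the same chromosome from 71741693 to 71804041 on the minus strand. SERPINA1 (ENSG00000197249) lies on chromosome 14 from 94376747 to 94390693 on the minus strand and SERPINA3 (ENSG00000196136) from 94612377 to 94624055 on the plus strand. AMBP (ENSG00000106927) is on chromosome 9 from 114060127 to 114078472, RBP4 (ENSG00000138207) on chromosome 10 from 93591687 to 93601744 and HPX (ENSG00000110169) on chromosome 11 from 6431049 to 6442617, all on the minus strand. TTR (ENSG00000118271) is on chromosome 18 from 31557010 to 31599021 and AHSG (ENSG00000145192) on chromosome 3 from 186612923 to 186621318, both on the plus strand. A1BG (ENSG00000121410) is on chromosome 19 from 58345178 to 58353499 on the minus strand. The longest transcripts range in G+C content from 41.3% for ALB and 42.0% for GC to 57.8% for RBP4 and 62.9% for A1BG, so the members differ widely in base composition.

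Sequence upstream of the start sites is shown for ALB, RBP4 and AMBP, the 3 genes that held 92.7% to 93.3% of the counts on the members in each sample. RefSeq (GRCh38.p14) gave start sites for 8 of the 10 members, and TTR and GC were not among them. Each stretch is the longest part, free of GENCODE exons, of the 250 bases before a RefSeq start, written 5′ to 3′ on the strand of the gene. Capitals mark matches, on either strand, to 4 short motifs. The HNF1 half-site was searched as GTTAAT. The motif of the C/EBP proteins was searched as TTGCNNAA. The core motif of SOX proteins was searched as AACAAT, and the TATA box, where the general transcription machinery can bind, as TATAAA. The matches did not overlap one another in the stretches shown. The stretches are ALB at chr4:73404037-73404238 on the plus strand, RBP4 (the second of 3 starts) at chr10:93601236-93601361 on the minus strand and AMBP at chr9:114078473-114078550 on the minus strand. Of the 3 RBP4 starts, only the one shown had the C/EBP motif. The first RBP4 start, with all 250 bases free of exons, had only the SOX core.
ALB: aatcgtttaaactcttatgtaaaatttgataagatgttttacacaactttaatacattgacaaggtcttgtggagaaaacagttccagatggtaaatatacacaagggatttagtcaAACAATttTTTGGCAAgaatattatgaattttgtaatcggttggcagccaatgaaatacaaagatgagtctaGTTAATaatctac
RBP4: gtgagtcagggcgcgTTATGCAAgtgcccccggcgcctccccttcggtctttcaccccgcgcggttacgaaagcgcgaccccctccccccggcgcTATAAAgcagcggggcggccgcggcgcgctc
AMBP: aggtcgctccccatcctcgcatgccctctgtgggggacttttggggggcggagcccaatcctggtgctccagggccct
In the whole 250 bases, the ALB start had the HNF1 half-site at -61 to -56, the C/EBP letters at -125 to -118 and the SOX core at -133 to -128, counted from the start. The C/EBP letters stood before 4 of the 11 member starts (ALB, AHSG, HPX and the second of RBP4), against 9.05% of all 35116 RefSeq starts. The HNF1 half-site stood before 2 of the 11 (ALB and the second start of SERPINA1), against 6.23% of all starts. The SOX core and the TATA box were found before 3 and 2 of the 11, against 8.98% and 10.7%. None of the 4 motifs was found in the 250 bases of AMBP. A match is only a description of the letters, and the number of member starts is small.

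Per transcript length, ALB was the highest of the members in both groups, with a mean of 1541 FPKM in the negative control and 1532 in the RAC3 samples. It ranked 34th and 32nd of all genes in the table. AMBP followed with 831 and 674 FPKM, then RBP4 with 374 and 389, TTR with 187 and 161, and SERPINA1 with 60.8 and 60.9. The levels of these 5 genes differed from one another beyond the spread of the samples. GC, HPX and AHSG formed a lower group between 10.5 and 26.8 FPKM over all samples, and SERPINA3 stayed between 0.487 and 1.06 FPKM. In the negative control the ranges of GC and HPX overlapped, as did those of HPX and AHSG, so their order is not resolved there. In the RAC3 samples no neighbours in the order overlapped, and GC stood above HPX with 21.6 to 26.8 against 14.5 to 16.1 FPKM. The order of the means was the same in both groups.

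**Figure D1:**
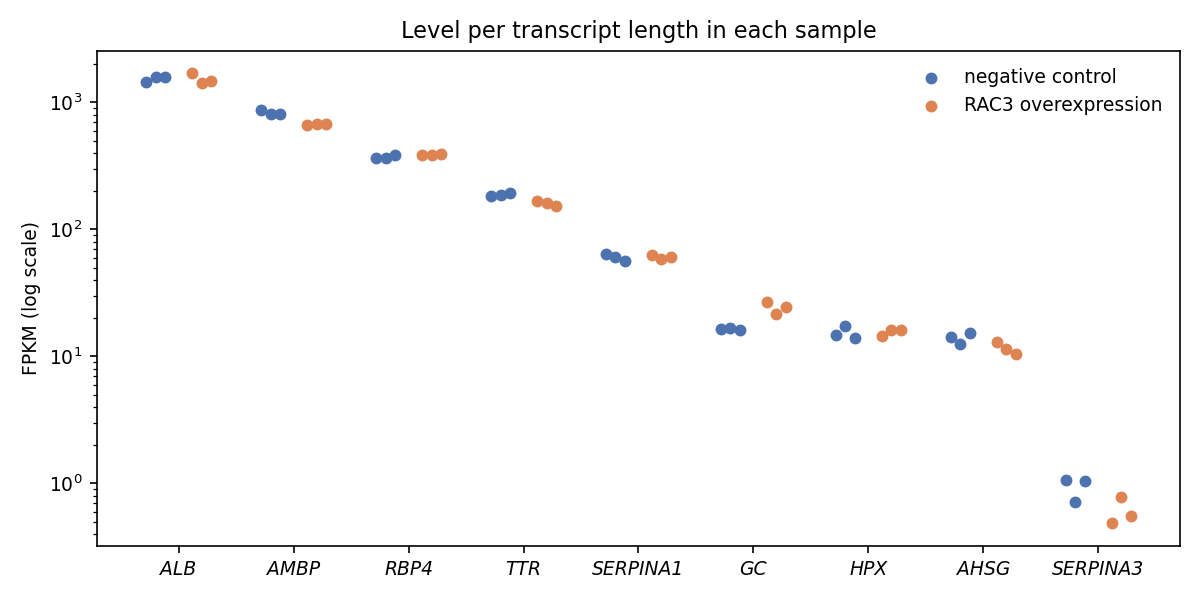
FPKM of the 9 tested plasma protein genes in each of the 6 samples (points), on a log axis and in order of the negative control means, with the negative control in blue and RAC3 overexpression in orange. ALB lies between 1418 and 1699 FPKM and SERPINA3 below 1.1 FPKM, and the order of the means is the same in both groups.

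With RAC3 overexpression, AMBP, TTR and AHSG fell and GC rose, all by less than 1.5-fold. ALB, RBP4, SERPINA1, SERPINA3 and HPX did not pass the test. Of the 9 members tested, 4 had an adjusted p under 0.05, while 28.5% of all genes tested did (edgeR's quasi-likelihood F test with Benjamini-Hochberg adjustment over all genes). There was 1 member called higher and there were 3 called lower, against 13.3% and 15.3% of all genes. Most members were well counted, and among genes that averaged 200 counts or more 36.0% were called, against 4 of the 8 members at that depth. The 4 called members were also the ones in which the groups did not overlap, which held for 42.5% of all genes. The rule of the study's methods, a fold change above 1.5 with an unadjusted p under 0.05, was passed by 0 of the 9 members with edgeR's quasi-likelihood test, as with limma-voom, DESeq2 and the exact test of edgeR, and by 4.68% of all genes tested by quasi-likelihood. The median log2 fold change of the 9 members was -0.09, against 0.004 for all genes tested. In such bulk samples, fewer cells that express a gene and less RNA per cell cannot be told apart.

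**Figure D2:**
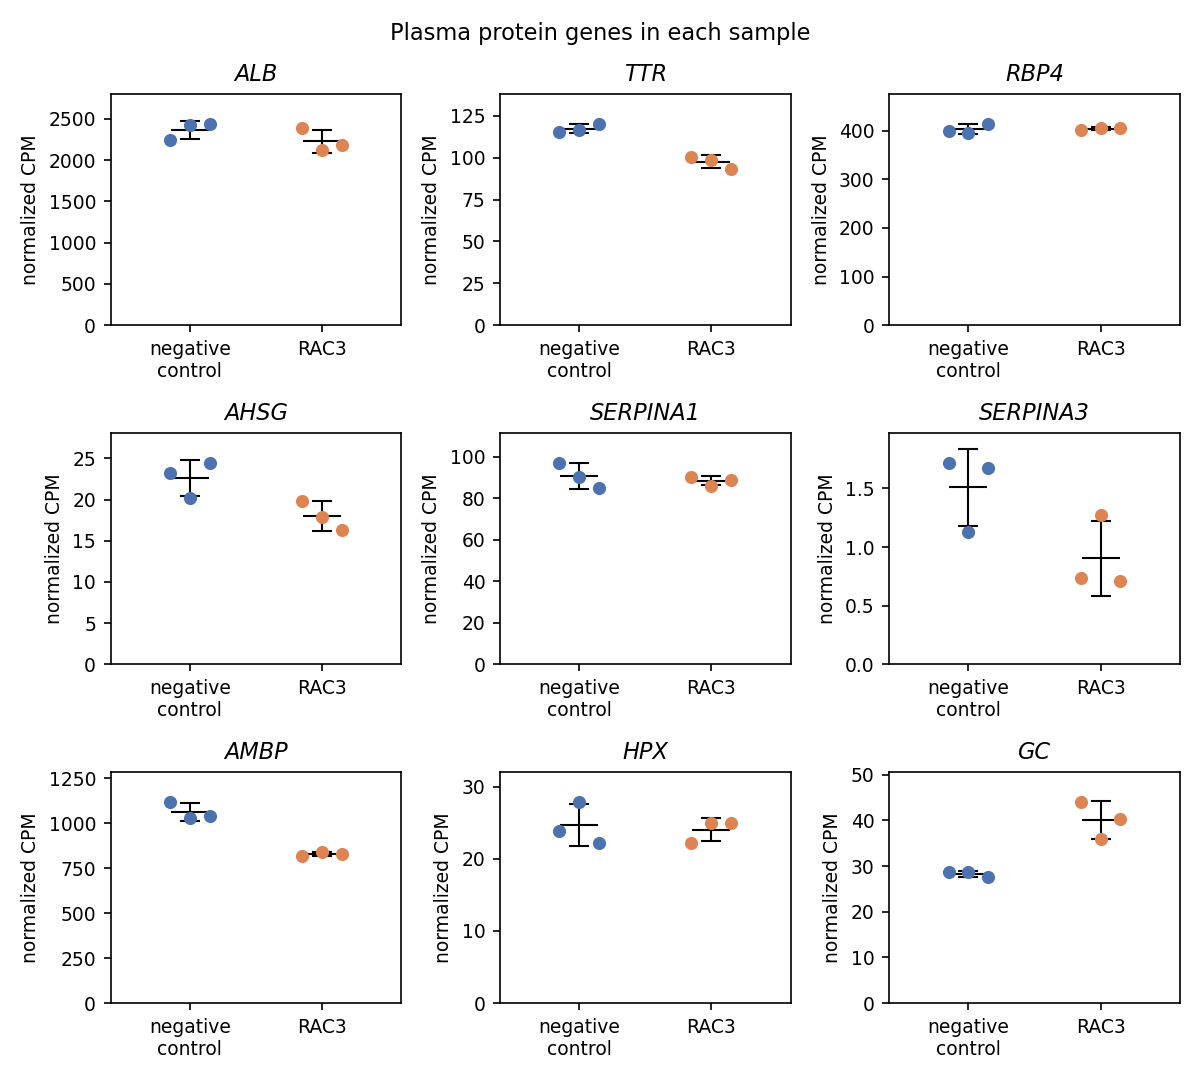
Normalized CPM of the 9 tested plasma protein genes in the 3 negative control samples (blue) and the 3 RAC3 samples (orange), each panel on its own linear axis from 0, with bars for the mean ± SD. The groups are separate for TTR, AHSG, AMBP and GC and overlap for the other 5 genes.

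Albumin, the most abundant plasma protein and a carrier of fatty acids, hormones and drugs, did not differ between the groups beyond the test's threshold. ALB had 2242, 2420.3 and 2441 CPM in the negative control replicates 1 to 3 and 2384, 2116 and 2187 in the RAC3 replicates. The RAC3 replicate 1 lay inside the range of the negative control, and the other RAC3 samples lay below it. The log2 fold change was -0.09 (SE 0.0438, 95% interval -0.18 to 0.00, adjusted p = 0.148 by edgeR). The call depended on single samples: without the negative control replicate 1 it was -0.13 (edgeR adjusted p = 0.034), and without the RAC3 replicate 1 it was -0.14 (edgeR adjusted p = 0.0173). AFP, its neighbour and fetal relative, which carries similar ligands, was at 416.9 ± 13.0 and 465.7 ± 21.4 CPM (SD over 3 samples per group), and rose by 0.16 on the log2 scale (edgeR adjusted p = 0.00885). Without the negative control replicate 2 its adjusted p was 0.0504.

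Because both genes were read in the same library, their ratio does not depend on the scaling. There were 5.54, 5.83 and 5.67 ALB counts for each AFP count in the negative control, and 4.86, 4.70 and 4.79 in the RAC3 samples. The ratio was thus lower in every RAC3 sample than in every control. The log2 ratio differed by -0.25 (2.51 ± 0.0369 against 2.26 ± 0.0254, SD, n = 3 per group, exact permutation p = 0.1, two-sided, adjusted p = 0.15 over 3 ratios). With 3 samples against 3, no p below 0.1 can be reached. AFM, another albumin relative that carries vitamin E, had a mean of 3.50 counts per sample and was not tested.

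The vitamin D-binding protein GC, which carries vitamin D metabolites and binds free actin in plasma, was the only member called higher by edgeR, apart from the G+C setting given further on. GC had 28.7, 28.6 and 27.5 CPM in the negative control and 44.1, 35.8 and 40.3 in the RAC3 samples. The lowest RAC3 sample stood well above the highest control, and the RAC3 samples varied more among themselves (coefficient of variation 10.3%) than the controls (2.37%). GC was thus higher by 0.51 on the log2 scale (SE 0.0803, edgeR adjusted p = 0.000119), or 1.42-fold with a 95% interval of 1.26 to 1.59, which reaches past 1.5. Over the samples left out in turn it ranged from 0.43 to 0.58.

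TTR and RBP4 travel in blood as a complex: RBP4 carries retinol from the liver, and transthyretin binds it, along with thyroxine, and keeps it from being lost through the kidney. TTR had 115.5, 116.5 and 120.4 CPM in the negative control and 100.7, 99.0 and 93.6 in the RAC3 samples. All RAC3 samples lay below all controls. TTR changed by -0.26 on the log2 scale (SE 0.0513, 95% interval -0.37 to -0.16, edgeR adjusted p = 0.000762).

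RBP4, by contrast, was level. It had 400.0, 394.8 and 414.2 CPM in the negative control and 401.2, 406.1 and 405.4 in the RAC3 samples. The RAC3 samples all fell inside the range of the controls. On the log2 scale the change was 0.00 (SE 0.039, edgeR adjusted p = 0.948), with a 95% interval from 0.948-fold to 1.06-fold. On the FPKM scale, which rests on another scaling, the RAC3 samples (387.3 to 391.9) lay just above the controls (366.4 to 387.0), and this difference did not pass limma on log2(FPKM + 1) (adjusted p = 0.303).

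Within each sample, there were 3.46, 3.39 and 3.44 RBP4 counts for each TTR count in the negative control. In the RAC3 samples there were 3.99, 4.10 and 4.33. All RAC3 samples exceeded all controls. The log2 ratio differed by 0.27 (1.78 ± 0.0164 against 2.05 ± 0.0614, SD, n = 3 per group, exact permutation p = 0.1, adjusted p = 0.15), again at the smallest p that 3 against 3 allows.

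**Figure D3:**
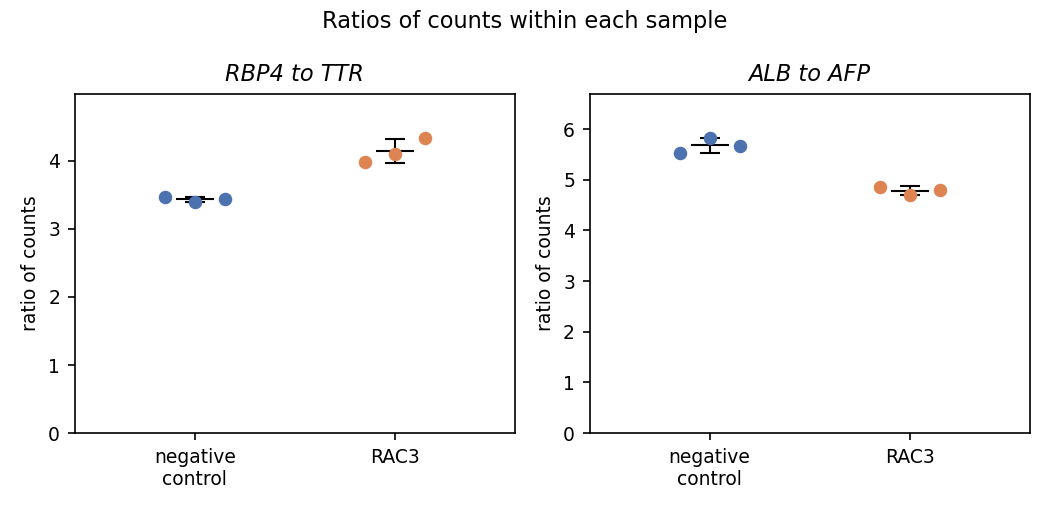
Ratio of RBP4 to TTR counts and of ALB to AFP counts in each sample of the negative control (blue) and RAC3 overexpression (orange), on linear axes from 0, with bars for the mean ± SD. RBP4 to TTR was 3.39 to 3.46 in the controls and 3.99 to 4.33 in the RAC3 samples, and ALB to AFP was 5.54 to 5.83 and 4.70 to 4.86.

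HPX, hemopexin, binds free haem and delivers it to hepatocytes through the receptor LRP1. It had 23.8, 27.9 and 22.2 CPM in the negative control and 22.2, 25.0 and 25.0 in the RAC3 samples, and these ranges overlapped. The log2 fold change was -0.03 (SE 0.0938, 95% interval -0.23 to 0.16, edgeR adjusted p = 0.82). Its sign changed with the scaling, and with library size alone it was 0.02.

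AMBP, which encodes a precursor cut into alpha-1-microglobulin, a haem-binding lipocalin, and bikunin, a Kunitz-type protease inhibitor, had the smallest p-value of the members. AMBP had 1120.2, 1032.4 and 1039.3 CPM in the negative control and 817.0, 839.8 and 831.8 in the RAC3 samples. All controls exceeded all RAC3 samples, and the gap between the groups was wider than the range within either. AMBP changed by -0.36 on the log2 scale (SE 0.0391, edgeR adjusted p = 2.18e-06), or 0.780-fold with a 95% interval of 0.737 to 0.825. Its p-value was the 98th smallest among all genes tested, and the call held in 16 of 16 other settings of scaling, filter, tool, block and samples, with log2 fold changes from -0.39 to -0.30. Bikunin acts bound to heavy chains encoded by some of the ITIH genes. Of the 5 ITIH genes on the list, 3 had under 10 counts in every sample and 2 were tested. ITIH2 fell from 107.8 ± 1.77 to 87.5 ± 1.90 CPM (SD, n = 3 per group, log2 fold change -0.30, edgeR adjusted p = 0.000216). ITIH5, with means of 0.93 CPM in the negative control and 0.64 in the RAC3 samples, was not called (edgeR adjusted p = 0.442).

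The inhibitory serpins did not pass the test. SERPINA1 (alpha-1-antitrypsin), which inhibits neutrophil elastase, had 97.2, 90.4 and 84.8 CPM in the negative control and 90.5, 86.1 and 88.7 in the RAC3 samples. The RAC3 samples all lay inside the range of the controls. Its log2 fold change was -0.04 (SE 0.0578, 95% interval -0.16 to 0.09, edgeR adjusted p = 0.687), and with library size alone its sign turned, at 0.02.

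SERPINA3 (alpha-1-antichymotrypsin), which inhibits cathepsin G, was scarce. It had 24, 17 and 30 counts in the negative control and 13, 21 and 10 in the RAC3 samples. The groups overlapped through the negative control replicate 2 and the RAC3 replicate 2. The log2 fold change was -0.73 with an SE of 0.373 and a 95% interval of -1.51 to 0.05 (edgeR adjusted p = 0.155). A difference of this size was not resolved at this depth. SERPINA3 shares 1592 exon bases on the same strand with AL049839.2, a gene with 4 to 15 counts per sample, so the division of reads between them is uncertain. Without the negative control replicate 2 (-0.90) or the RAC3 replicate 2 (-1.06) SERPINA3 passed the study's rule, but its edgeR adjusted p-values were 0.137 and 0.0906. SERPINA1 counts exceeded SERPINA3 counts 56.5, 79.8 and 50.7 times in the negative control and 124, 67.5 and 125 times in the RAC3 samples, and the log2 ratio differed by 0.73 (exact permutation p = 0.2, adjusted p = 0.2, n = 3 per group).

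AHSG (fetuin-A), which binds calcium phosphate in plasma and keeps it from precipitating, fell. It had 23.2, 20.2 and 24.5 CPM in the negative control and 19.8, 17.9 and 16.2 in the RAC3 samples. The groups did not overlap, but the lowest control and the highest RAC3 sample were close together. Its log2 fold change was -0.33 (SE 0.0999, 95% interval -0.54 to -0.12, edgeR adjusted p = 0.0184). The adjusted p was 0.0854 without the negative control replicate 3 and 0.0911 without the RAC3 replicate 3, so the call rests on those samples.

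A1BG, a plasma glycoprotein of the immunoglobulin superfamily, was nearly absent. It had 0, 0 and 1 counts in the negative control and 1, 1 and 0 in the RAC3 samples. All values lie under the limit that a count of 0 allows, and no fold change is given.

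**Figure D4:**
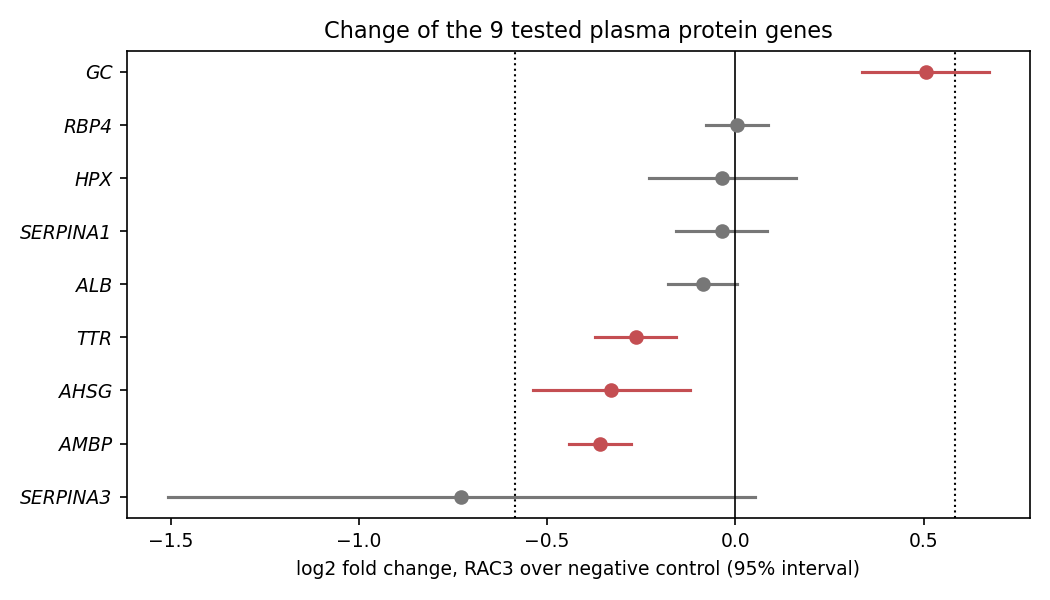
Log2 fold change of the 9 tested plasma protein genes, RAC3 over negative control, with 95% intervals (red, edgeR adjusted p under 0.05, grey, not). Dotted lines mark 1.5-fold in either direction, and the interval of GC, 0.34 to 0.67, reaches past one of them, as does that of SERPINA3.

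The members together took 0.394%, 0.406% and 0.411% of all counts in the negative control and 0.398%, 0.368% and 0.375% in the RAC3 samples. The groups overlapped through the RAC3 replicate 1, in which ALB was high. Without ALB the share was 0.168% to 0.176% in the controls and 0.1528% to 0.1534% in the RAC3 samples, and the groups were separate, with AMBP the largest remaining component. The RAC3 replicate 1 was the highest of its group for 5 members (AHSG, ALB, GC, SERPINA1 and TTR). Among the controls, replicate 3 was highest for 4 (AHSG, ALB, RBP4 and TTR) and replicate 1 for 4 others (AMBP, GC, SERPINA1 and SERPINA3).

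Grouped by role, 1 of the 6 carriers was called higher and 2 lower, and of the 3 protease inhibitors 1 was called lower, with AMBP counted in both. Of all genes tested, 13.3% were called higher and 15.3% lower, so such small groups say little. Grouped by acute phase behaviour, 2 of the 4 members that fall in inflammation were called lower (TTR and AHSG), of which AHSG was not called without the negative control replicate 3 or the RAC3 replicate 3. The 3 that rise had edgeR p-values of 0.0655 or more before adjustment and were not called by DESeq2, edgeR's exact test or limma-voom. The medians were -0.18 and -0.04 on the log2 scale. The difference between these groups was not tested.

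The base composition of the genes moved with some of the results. With the trend of each library with G+C content removed, an alternative chosen after seeing the data, ALB was called lower at -0.20 (edgeR adjusted p = 0.000109) and RBP4 higher at 0.14 (edgeR adjusted p = 0.00823). AHSG was then no longer called, at -0.25 (edgeR adjusted p = 0.0782). GC (0.40), TTR (-0.29) and AMBP (-0.24, against -0.36 as reported) kept their direction and their call. AFP, the partner of ALB in the ratio above, was no longer called, at 0.01 (edgeR adjusted p = 0.843). Which of the 2 sets of values lies nearer to the RNA levels of the cells was not tested.

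**Figure D5:**
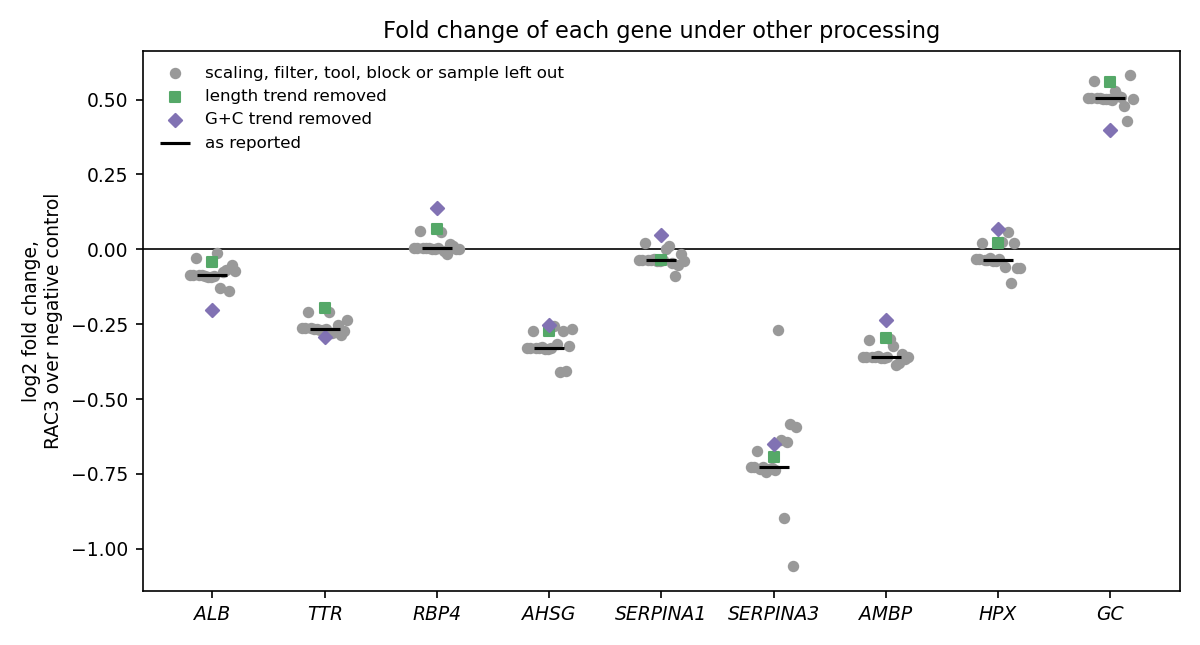
Log2 fold change of each tested member as reported (black bar), under each other scaling, filter, tool, replicate block or left-out sample (grey points), and with the trend with transcript length (green) or G+C content (purple) of each library removed. AMBP, TTR, ALB, AHSG and SERPINA3 lie below 0 and GC above 0 in every setting, while RBP4, SERPINA1 and HPX lie on both sides of 0.

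Partners and relatives of the members were taken from lists written from general knowledge. Their counts stand beside 13.3% of all genes tested called higher and 15.3% called lower, and nothing is read from a list near these shares. Over the lists other than the cell markers, each gene counted once, 27 genes were called higher and 36 lower. The lists share genes and the number of distinct genes tested is not given here. These 27 and 36 are therefore not set against the shares of all genes. With scaling by library size alone there were 36 and 25, so the balance of directions depends on the scaling. Among 15 tested genes of retinoid handling other than RBP4 and TTR, 1 rose and 5 fell, with a median log2 fold change of -0.17. STRA6, a membrane receptor for RBP4, fell from 20.3 ± 2.74 to 12.1 ± 1.22 CPM (log2 fold change -0.73, edgeR adjusted p = 0.000122). ALDH1A1, which makes retinoic acid, rose (0.24, edgeR adjusted p = 0.000286). RARG, a retinoic acid receptor, and CRABP2, a retinoic acid-binding protein, fell (-0.85 and -0.43, edgeR adjusted p = 0.0012 and 0.00438). Among 9 tested genes of haem and haemoglobin clearance other than the members, 4 fell, and the median was -0.13. They included LRP1, the hemopexin receptor, from 555.7 ± 33.1 to 458.4 ± 7.48 CPM (-0.28, edgeR adjusted p = 0.000111, and -0.11 with the G+C trend removed), and FTH1, the ferritin heavy chain that stores iron (-0.18, edgeR adjusted p = 0.000503).

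Among 5 tested serpins of clade A other than SERPINA1 and SERPINA3, 1 fell, and the median was -0.19. It was SERPINA6, the carrier of cortisol, from 11.7 ± 1.49 to 8.23 ± 1.39 CPM (-0.50, edgeR adjusted p = 0.0142). Among 5 tested lipocalins other than the members, relatives of RBP4 and alpha-1-microglobulin, 2 fell, and the median was -0.27. Both were orosomucoid genes, ORM1 (-0.40, edgeR adjusted p = 9.64e-06) and ORM2 (-0.36, edgeR adjusted p = 0.00078), near-identical copies whose reads can be split between them, so their separate values are uncertain. The 1 tested relative of AHSG among fetuin and kininogen genes was not called. A wider list of liver plasma proteins other than the members shares genes with the lists above, among them ITIH2, SERPINA6, ORM1, ORM2 and AFP. Of its 36 tested genes, 6 rose and 13 fell, with a median of -0.18, and the shared genes are counted again here. This list held 55 genes, and 17 of them had under 10 counts in every sample. The risers included the 3 fibrinogen chains FGA (0.21), FGB (0.30) and FGG (0.23), and among those that fell were the iron carrier TF (-0.56), APOE (-0.43) and prothrombin, F2 (-0.61), with an edgeR adjusted p of at most 0.00113 for these 6.

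Of 26 tested transcription factors of the hepatocyte, 7 rose and 8 fell, with a median of -0.02. Of the 4 C/EBP genes on the list, whose letters stand before 4 member starts, CEBPA fell from 335.2 ± 26.3 to 239.6 ± 11.1 CPM (-0.48, edgeR adjusted p = 1.93e-06) and CEBPD rose from 88.7 ± 5.27 to 145.8 ± 7.71 CPM (0.72, edgeR adjusted p = 3.93e-08), while CEBPB (0.06, edgeR adjusted p = 0.561) and CEBPG (-0.05, edgeR adjusted p = 0.575) did not pass the test. STAT3 and NR3C1, the transducer of interleukin-6 signals and the glucocorticoid receptor, rose (0.19 and 0.27), and RXRA, the partner of many nuclear receptors, and DBP fell (-0.40 and -0.86), with an edgeR adjusted p of at most 0.00873 for these 4. HNF4A was not called (0.03, edgeR adjusted p = 0.752). No link between these factors and the members was tested.

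Markers of the hepatocyte and of other cell types were read to describe the Huh-7 line. Of the 5 hepatocyte and liver cancer markers, all were tested and their sum was 2345 to 2384 CPM in the controls and 2319 to 2490.1 in the RAC3 samples, with AFP and APOB higher and GPC3 lower. The endothelial markers VWF and CDH5, the fibroblast marker DCN and the leukocyte markers PTPRC and CD3E had under 10 counts in every sample. The summed endothelial markers stood at 2.53 to 3.15 and 2.70 to 3.64 CPM, the fibroblast markers at 84.8 to 85.6 and 93.8 to 98.9, and the leukocyte markers, mostly CD14, at 37.3 to 46.2 and 33.1 to 35.0. Within the fibroblast sum COL1A2 rose (0.51, edgeR adjusted p = 9.89e-06), COL1A1 fell (-0.22, edgeR adjusted p = 0.0242) and PDGFRB did not pass the test (-0.71, edgeR adjusted p = 0.0573). CD14, which hepatocytes also express, fell (-0.37, edgeR adjusted p = 0.00197). The 3 cholangiocyte markers summed to 809 to 842 CPM in the controls and 661 to 711 in the RAC3 samples, and KRT19 among them fell (-0.32, edgeR adjusted p = 4.14e-05). Only the Huh-7 line was sequenced, so these values are read as expression by that line. Their link to the changes of the members was not tested.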

How the data were processed

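Poly(A)-selected RNA of Huh-7 cells with stable RAC3 overexpression and of negative controls (3 samples each, grouped by title) had been sequenced on an Illumina NovaSeq instrument. The deposited table holds raw counts per gene and FPKM values calculated by the authors. The submitters' processing notes name Bowtie2 2.2.8, HISAT2, StringTie 1.3.1 and DESeq2. The genome build, the annotation, the gene lengths behind FPKM and the strand setting are not given in the sources used here. The authors' group mean FPKM columns were not used.

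The raw counts were tested with edgeR 4.0.16 under R 4.3.3. The function filterByExpr left 12941 genes, TMM scaled the libraries, and a two-sided quasi-likelihood F test without covariates was adjusted by Benjamini-Hochberg over these genes. Standard errors were derived from the F statistic. The biological coefficient of variation was 0.0533. DESeq2 1.42.0 and limma 3.58.1 served as alternatives, the latter also on log2(FPKM + 1). Gene positions and G+C content came from GENCODE release 29, which holds 20113 of the 20332 identifiers; upstream sequences came from RefSeq. Trends with G+C content or length were removed by lowess with a span of 0.3 over 12863 genes. In data simulated for this comparison on 12863 genes, the test found 43 of 81 genes changed 1.25-fold, 45 of 57 changed 1.5-fold and 53 of 59 changed 2-fold, with 9 false calls. The simulation changed a far smaller share of the genes than the 28.5% called in the data, and it mixed genes of all depths. These rates therefore need not hold for the members.

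The members and the gene lists were chosen with earlier results of these data known, and no set test was made. All members are named. From each list up to 3 genes higher and 3 lower with the smallest p-value were eligible, given an adjusted p under 0.05 and a mean of at least 10 counts. HNF4A, CEBPB, CEBPG, PDGFRB, AFM, AL049839.2, ITIH5, the markers near 0 and the subunits of the COPII coat were named beyond this rule. Replicates of a group differed by more than sampling noise (chi-square per gene of 2.49 to 5.23).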

Additional observations from a re-analysis of the deposited data

How the results depend on the processing

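Among 16 other settings of scaling, filter, tool, block and samples, GC (0.43 to 0.58), TTR (-0.29 to -0.21) and AMBP (-0.39 to -0.30) kept direction and call. Over the members and all alternatives, 141 of 162 log2 fold changes kept direction and side of the threshold, 4 lost the call, 4 gained it and 13 changed sign. Sign changes were seen for RBP4, SERPINA1 and HPX, none of them called, and their cause was not tested. RBP4 was -0.0002 without a filter on low counts. SERPINA1 was 0.0211 with library size alone, 0.0026 with limma on log2(FPKM + 1) and 0.0487 with the G+C trend removed. HPX was 0.0215, 0.024 and 0.068 in the same settings and 0.0214 with the length trend removed. With single samples left out, RBP4 ranged from -0.0158 to 0.0195, SERPINA1 from -0.0894 to 0.0116 and HPX from -0.1129 to 0.0584. Library size alone moved the median of all genes from 0.004 to 0.06.

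AHSG was not called with limma on log2(FPKM + 1) (adjusted p = 0.103). With the G+C trend removed, a setting chosen after seeing the data, 2 members were called higher, GC and RBP4. SERPINA3 made 1 member past the study's rule with at least 10 counts required in every sample, and with single samples left out the number was 0 to 1. Of the related genes, 27 were called higher and 36 lower as reported, counts that are not set against the shares of all genes. With library size alone the balance turned, to 36 higher and 25 lower, and with limma on log2(FPKM + 1) 22 were called lower. With the G+C trend removed 18 were called higher, and with single samples left out 18 to 23 were called higher and 25 to 33 lower. The numbers of the replicates did not pair the samples (correlations of deviations from -0.087 to -0.021 over 11221 genes), and with a replicate block the fold changes of the called members were 0.50 for GC (edgeR adjusted p = 0.000128) and -0.33 for AHSG (edgeR adjusted p = 0.0217), with no call of a member changed. Depth limits SERPINA3 and A1BG.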

Other observations

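The route by which plasma proteins leave the cell was read from a pair of lists. Of 32 tested genes of entry into the endoplasmic reticulum, 7 rose and 3 fell, with a median log2 fold change of 0.04, against 13.3% of all genes tested called higher and 15.3% called lower. SEC62, a translocon partner, rose from 92.7 ± 3.11 to 117.2 ± 4.29 CPM (SD, n = 3 per group, 0.34, edgeR adjusted p = 9.26e-05), with TRAM1 (0.22, edgeR adjusted p = 0.00055) and SPCS3, a subunit of the signal peptidase (0.33, edgeR adjusted p = 0.00117). SEC61A1, the channel of the translocon, fell (-0.14, edgeR adjusted p = 0.0051), as did SRP68 of the signal recognition particle (-0.21, edgeR adjusted p = 0.00453). Of 35 genes of folding and export to the Golgi, 6 rose and 3 fell, with a median of 0.01, beside the same shares of all genes. ERGIC1, with the smallest p of this list, fell (-0.26, edgeR adjusted p = 6.89e-05), as did ERGIC3 (-0.14, edgeR adjusted p = 0.0162), while ERGIC2 rose (0.27, edgeR adjusted p = 0.00359). The GTPases of the COPII coat SAR1A and SAR1B rose (0.33 and 0.23, edgeR adjusted p = 0.000181 and 0.00778). The coat subunits SEC13, SEC31A and those of the SEC23 and SEC24 genes were not called. The chaperone HSPA5 fell from 1104.9 ± 45.0 to 985.5 ± 26.4 CPM (-0.17, edgeR adjusted p = 0.00368).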
